A study of Arabidopsis thaliana with 8 samples.

Results

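The genotype by drought interaction asks, for each transcript, whether leaves of Arabidopsis plants that overexpress VaNAC26 changed during drought as much as wild type leaves did. It was computed as the response of the overexpressor (OE), the mean log2 intensity at 5 d minus that at 0 d, less the same response of the wild type (WT). All 8 arrays of the series entered, 2 in each of the 4 groups, and the difference was taken for each of 22746 of 22810 probe sets, all but 64 array controls, of the Affymetrix ATH1 array, on which a set of short probes measures a transcript. The groups were OE leaves at 5 d after the last irrigation (OE 5d), OE leaves at 0 d (OE 0d), WT leaves at 5 d (WT 5d) and WT leaves at 0 d (WT 0d). All plants were grown in soil for 21 d before water was withheld. The OE plants were of the T4 generation, carried the grapevine gene under the CaMV 35S promoter, which is active in most tissues, and were sampled as equal pools of 3 lines, so the lines cannot be compared. No array was made from plants kept watered until 5 d. A drought response therefore includes 5 d of ageing in both genotypes, and drought and ageing cannot be told apart. The VaNAC26 transcript itself was not analysed here. The labels do not say that the replicates came from separate plants, so the p-values measure only the spread between these arrays, which may be technical.

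VaNAC26 belongs to the NAC transcription factors, a plant-specific family of which many members act in drought, senescence and hormone responses. In drying soil a leaf commonly slows cell division and wall growth, raises protective proteins and enzymes under the control of abscisic acid, and changes its defence programmes. Jasmonate, a hormone made from chloroplast fatty acids, controls part of these defences and was the subject of the study in these plants. A positive interaction can arise in several ways: the transcript rose more in OE leaves, fell less, or fell in WT leaves alone. For every transcript the interaction also equals the difference between OE and WT at 5 d less that at 0 d, so that a level that already differed before drought counts as much as one that came to differ during it.

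The array medians lay between 36.2 and 38.2, and 47.8% of the values were under 32, a range taken here as dim. RCA, the Rubisco activase of leaf mesophyll, ranged from 6992 to 9858 over the 8 arrays. FMA, a marker of the stomatal lineage, ranged from 26.99 to 42.5, and PYK10, a beta-glucosidase best known from roots, ranged from 10.4 to 139 and was highest in WT 0d. The listed markers of vasculature, flower and seed had no named probe set. The OE 5d pair stood apart in its spread. Its arrays differed by more than 2-fold at 1294 probe sets, against 79 in the OE 0d pair, 143 in the WT 5d pair and 87 in the WT 0d pair. Values with each OE 5d array alone are therefore given beside some of the class medians and beside several of the named transcripts.

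The drought response was smaller in OE leaves than in WT leaves at the median of the transcripts that responded in WT leaves. Over all probe sets the least-squares slope of the OE response on the WT response was 0.503. It was 0.311 with OE 5d replicate 1 alone and 0.696 with replicate 2 alone. Of the probe sets tested, 1607 rose and 1485 fell in OE leaves (7.06% and 6.53%), against 3567 and 3376 in WT leaves (15.7% and 14.8%), at an adjusted p under 0.05 from limma. Because the interaction contains the WT response, transcripts picked for a large WT change on the same arrays would show a smaller OE change in part through error alone. The probe sets were therefore also chosen on 1 pair of WT arrays and measured on the other. The 1572 probe sets raised more than 2-fold on the replicate 1 arrays had a median response of 0.91 in OE leaves, against 1.53 on the replicate 2 arrays of WT leaves, a ratio of 0.596. The 1920 probe sets lowered more than 2-fold had median responses of -0.64 in OE leaves and -1.40 in WT leaves, a ratio of 0.456. The OE response was the smaller one for 94.5% of the lowered and 88.0% of the raised probe sets. These shares depended on the arrays. With the choice made on the replicate 2 arrays of WT leaves and OE 5d replicate 2 alone, they were 78.9% and 66.9%. The highest, with the choice on replicate 1 and OE 5d replicate 1 alone, were 95.4% and 89.6%.

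The median difference of OE minus WT for the lowered transcripts was 0.46 at 5 d and -0.30 at 0 d. For the raised transcripts it was -0.46 at 5 d and 0.24 at 0 d. The difference at 5 d depended on the OE 5d array: with replicate 1 alone it was 0.805 for lowered and -0.742 for raised transcripts, and with replicate 2 alone 0.16 and -0.18. With probe sets chosen on the replicate 2 arrays of WT leaves and measured on the replicate 1 arrays, the differences were 0.381 at 5 d and -0.376 at 0 d for lowered and -0.306 at 5 d and 0.106 at 0 d for raised transcripts. In that choice OE 5d replicate 2 alone gave 0.0614 and -0.046 at 5 d. In the first choice the ratios with OE 5d replicate 1 alone were 0.413 for raised and 0.219 for lowered transcripts, and with replicate 2 alone 0.759 and 0.681. The median responses were thus smaller in OE leaves with either array, and more so with replicate 1.

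**Figure D1:**
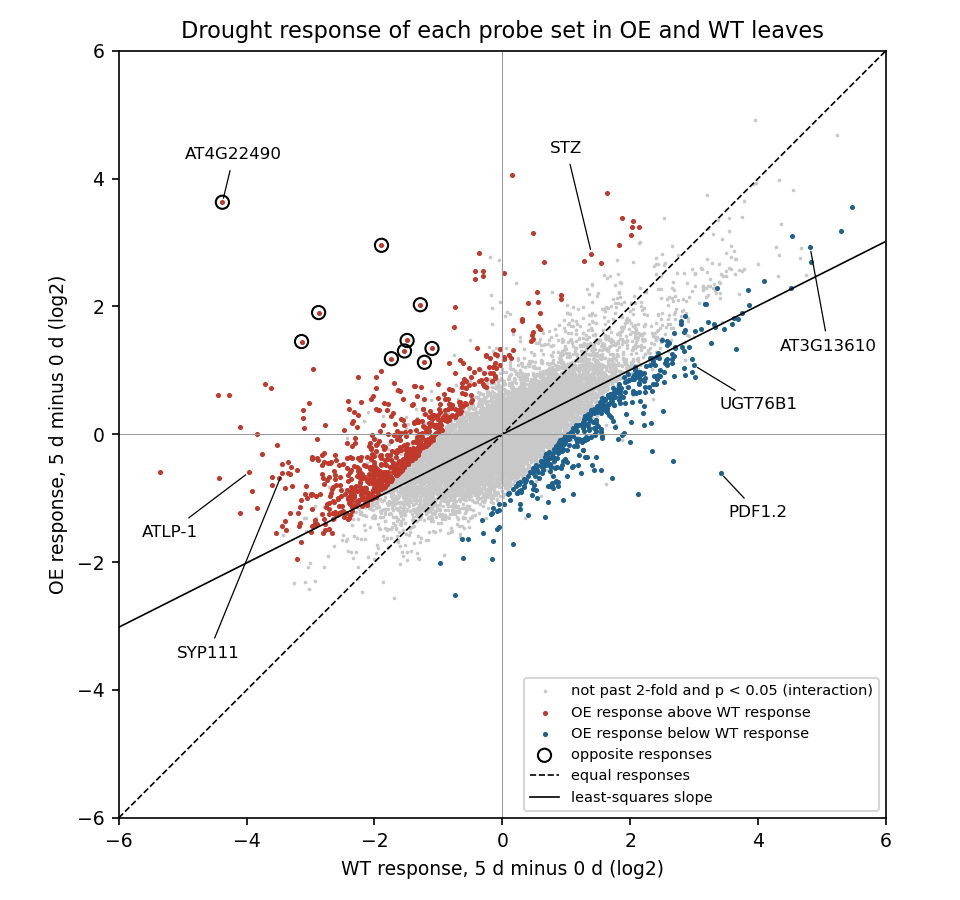
Drought response of each of the 22746 probe sets in OE leaves (vertical axis, log2) against that in WT leaves (horizontal axis, log2), each from 2 arrays at 5 d and 2 at 0 d. Red points responded more positively and blue points more negatively in OE leaves past the study's threshold for the interaction, circles mark the 10 opposite responses, and the solid line has the slope of 0.503 against the dashed line of equal responses.

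At an adjusted p under 0.05 the interaction passed for 7 probe sets (0.0308% of those tested), all of them positive. Without adjustment 3375 had a p under 0.05, 1691 positive and 1684 negative. The study called changes of more than 2-fold in either direction at an unadjusted p below 0.05. This threshold, applied to the interaction, was passed by 709 probe sets with a positive interaction (3.12%) and 412 with a negative one (1.81%). Of the positive ones, 600 fell in WT leaves at an adjusted p under 0.05 and 13 rose, while in OE leaves 81 fell and 71 rose. Their median response was -0.348 in OE leaves and -1.78 in WT leaves. Of the negative ones, 337 rose in WT leaves and 2 fell, while in OE leaves 57 rose and 45 fell. Their median responses were 0.136 in OE leaves and 1.42 in WT leaves. The most common forms were thus a fall in WT leaves and a rise in WT leaves that the OE leaves showed in part or not at all. More than 2-fold rises in OE leaves were found for 69 of the positive probe sets. In dim probe sets the size of a change is uncertain, and all 4 group means were under 32 for 106 of the positive and 40 of the negative ones.

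The positive probe sets had a median OE minus WT difference of 0.809 at 5 d and -0.553 at 0 d. The sign of the difference was opposite at 5 d and 0 d for 683 of the 709. The difference at 5 d was the larger one for 528 and that at 0 d for 181. For the negative probe sets the medians were -0.727 at 5 d and 0.496 at 0 d, and the signs were opposite for 358 of the 412. Since these probe sets were chosen on the difference between the values at 5 d and 0 d, the medians and the counts of opposite signs are a description and no test. Few of these differences passed alone: over the whole array the genotypes differed at an adjusted p under 0.05 for 11 probe sets at 5 d (0.0484%) and for 18 at 0 d (0.0791%).

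The largest interaction that passed was that of AT4G22490. Its intensities were 278 and 123 in OE 5d, 20.03 and 11.1 in OE 0d, 17.7 and 14.5 in WT 5d and 440.2 and 251 in WT 0d. The high groups were OE 5d and WT 0d, and neither overlapped the low ones, and the transcript rose in OE leaves by 3.63 on the log2 scale (adjusted p = 0.0036) and fell in WT leaves by 4.38 (adjusted p = 0.000708). The interaction was 8.01 (SE 0.62, adjusted p = 0.0132). Because both low groups were under 32, its size is uncertain. The probe sets 249862_at and 253660_at, which have no gene name in the annotation used here, followed the same crossed course. For 249862_at the intensities were 1285 and 1349.7 in OE 5d, 319 and 328 in OE 0d, 292 and 531 in WT 5d and 1019 and 899 in WT 0d, and the interaction was 3.31 (SE 0.36, adjusted p = 0.049). For 253660_at they were 25.3 and 22.4 in OE 5d, 8.13 and 9.34 in OE 0d, 9.49 and 7.52 in WT 5d and 74.2 and 74.9 in WT 0d, with an interaction of 4.59 (SE 0.23, adjusted p = 0.000947). Its OE 5d arrays lay between the low groups and WT 0d, and all but WT 0d were under 32.

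The other unnamed transcript that rose in OE leaves, 247717_at, had similar levels in the genotypes before drought. Its values were 797 and 587 in OE 5d, 95.8 and 81.1 in OE 0d, 20.09 and 28.9 in WT 5d and 70.5 and 113 in WT 0d. It rose in OE leaves by 2.96 and fell in WT leaves by 1.89, and the interaction was 4.85 (SE 0.39, adjusted p = 0.0132). AT5G19120 had 983 and 857 in OE 5d, 272 and 304 in OE 0d, 276 and 319.8 in WT 5d and 548 and 455 in WT 0d. Its OE 5d arrays stood above those of the other 3 groups, and the interaction was 2.42 (SE 0.23, adjusted p = 0.0255), from a rise of 1.67 in OE leaves and a fall of 0.75 in WT leaves.

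In the remaining probe sets that passed, AT4G36180 and 257823_at, WT leaves fell by 2.42 and 2.89 while the responses in OE leaves were -0.14 (adjusted p = 0.684) and -0.08 (adjusted p = 0.827). AT4G36180 had 34.8 and 25.5 in OE 5d, 31.9 and 33.5 in OE 0d, 11.6 and 11.6 in WT 5d and 64.0 and 60.7 in WT 0d, and its interaction was 2.29 (SE 0.24, adjusted p = 0.0425). For 257823_at the values were 16.2 and 12.3 in OE 5d, 13.7 and 16.2 in OE 0d, 13.4 and 13.7 in WT 5d and 102 and 99.5 in WT 0d. Only WT 0d stood above 20, and the interaction of 2.81 (SE 0.24, adjusted p = 0.0136) lay in the difference at 0 d, since OE minus WT was 0.06 at 5 d and -2.75 at 0 d. For all 7 the sign was the same with each OE 5d array alone.

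**Figure D2:**
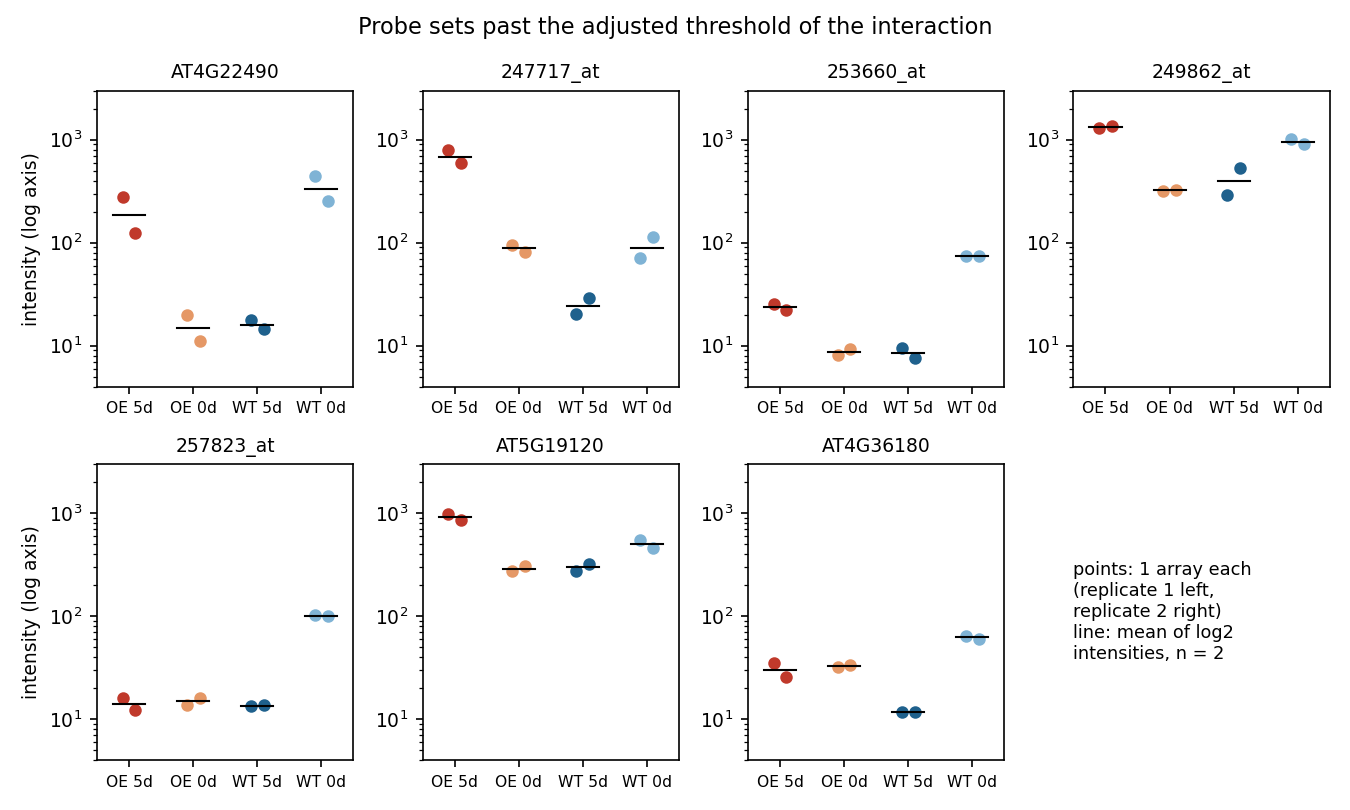
Intensity of the 7 probe sets whose interaction passed an adjusted p of 0.05, on a logarithmic axis, with each point an array and each line the mean of the log2 intensities of the 2 arrays of a group. AT4G22490 shows the crossed course, with 278 and 123 in OE 5d and 440 and 251 in WT 0d, against values under 32 in OE 0d and WT 5d.

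Opposite responses, with both genotypes past the study's threshold in different directions, were found at 10 probe sets (0.044%). All 10 were higher at 5 d in OE leaves and lower at 5 d in WT leaves. Besides AT4G22490 and 3 unnamed ones given above, they were AT5G01870, AT5G33370, AT3G06220, AT2G01610, WES1 and LCR69. WES1, which codes for GH3.5, an enzyme that joins auxin and salicylic acid to amino acids, had intensities of 42.5 and 62.1 in OE 5d, 18.1 and 22.6 in OE 0d, 23.2 and 17.7 in WT 5d and 55.5 and 34.0 in WT 0d. It rose in OE leaves by 1.34 (adjusted p = 0.0198) and fell in WT leaves by 1.101 (adjusted p = 0.0203), and its interaction was 2.44 (SE 0.40, adjusted p = 0.119). LCR69 belongs to the small cysteine-rich proteins related to defensins and had 2838 and 680.5 in OE 5d, 474 and 669 in OE 0d, 349.8 and 301 in WT 5d and 988 and 890.5 in WT 0d. OE 5d replicate 2 lay at the level of OE 0d and replicate 1 far above it, the response had an adjusted p of 0.167 in OE leaves and 0.07 in WT leaves, and the interaction was 2.83 (SE 0.78, adjusted p = 0.204). AT5G01870 had 64.2 and 23.5 in OE 5d, 9.62 and 11.2 in OE 0d, 6.41 and 7.59 in WT 5d and 58.1 and 45.0 in WT 0d, and its interaction was 4.78 (SE 0.57, adjusted p = 0.0779). With values under 32 set to 32, the interaction of AT3G06220 went from 2.92 to 0.0059 and that of AT2G01610 from 2.35 to 1.03. That of AT5G33370 went from 2.96 to 2.21. Under this floor AT5G01870 had 1.18, WES1 had 1.125 and LCR69 had 2.83.

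Cell division transcripts had the most positive median among the gene classes with 4 or more probe sets. Of a list of 23 genes for mitosis and the G2/M phase, 4 had a named probe set: AUR1, AUR2 and AUR3, the Aurora kinases that act on chromosomes and the division plane, and BUBR1, a spindle checkpoint protein. All 4 fell in WT leaves at an adjusted p under 0.05 and 1, BUBR1, fell in OE leaves. Of all probe sets 14.8% fell in WT leaves and 6.53% in OE leaves. For the 4 genes the median response was -0.71 in OE leaves and -2.16 in WT leaves. Their median interaction was 1.73, beside -0.016 over all probe sets. That of the 4 genes was 0.80 with values under 32 set to 32. AUR2 had intensities of 51.0 and 22.4 in OE 5d, 58.9 and 77.4 in OE 0d, 16.6 and 12 in WT 5d and 114 and 121 in WT 0d. Each of its WT 5d values lay below all others, and OE 5d replicate 1 lay near the OE 0d arrays while replicate 2 lay near WT 5d. The interactions were 2.06 (SE 0.50, adjusted p = 0.174) for AUR2, 1.84 for AUR3 and 1.61 for AUR1, the last with an adjusted p of 0.166. Of the 4 genes 3 passed the study's threshold, as did 3.12% of all probe sets in the positive direction.

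Further transcripts of the dividing cell are given as single genes. Apart from PRL, which was on the replication list, they were named after their values were seen and add no evidence on the class. SYP111, the syntaxin known as KNOLLE that builds the cell plate, had 189.6 and 81.0 in OE 5d, 167 and 214 in OE 0d, 40.7 and 29.0 in WT 5d and 384 and 365 in WT 0d. OE 5d stood above WT 5d on both arrays, and WT 0d stood above OE 0d. It fell in WT leaves by 3.44 on the log2 scale (adjusted p = 0.000807), its response in OE leaves was -0.61 (adjusted p = 0.334), and the interaction was 2.83 (SE 0.51, adjusted p = 0.136). PRL, the MCM7 subunit of the replication helicase, had 53.6 and 52.5 in OE 5d, 94.6 and 122 in OE 0d, 42.9 and 31.5 in WT 5d and 156 and 148 in WT 0d. It fell in both genotypes, by 1.02 in OE leaves and 2.05 in WT leaves, and the interaction of 1.03 (SE 0.27, adjusted p = 0.192) was alike in the OE 5d arrays, 1.05 with replicate 1 and 1.02 with replicate 2. TOPII, the DNA topoisomerase that untangles sister chromosomes, fell in OE leaves by 1.42 and in WT leaves by 2.91, with an interaction of 1.497 (SE 0.38, adjusted p = 0.183). Interactions between 1.21 and 1.65 were also found for PSF2, a subunit of the GINS replication complex, the checkpoint protein gene BUB3.1, the DNA clamp gene PCNA1, the spindle protein gene TPX2 and the chromosomal proteins 3xHMG-box1 and 3xHMG-box2 (adjusted p = 0.141 to 0.234). SYP111, PCNA1 and TPX2 took their names from the study's list of changed genes and were left out of the class counts.

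Among 5 named core histones, 4 fell in WT leaves and 2 in OE leaves, and all 5 had a positive interaction, with a median of 0.54. HTB1 and HTB2, genes of histone H2B, had interactions of 1.04 (SE 0.28, adjusted p = 0.203) and 1.46 (SE 0.39, adjusted p = 0.195). HTB2 had 160.0 and 85.5 in OE 5d, 162 and 184 in OE 0d, 57.2 and 69.2 in WT 5d and 277 and 237 in WT 0d, so that OE 5d replicate 1 was close to the OE 0d arrays and replicate 2 lay closer to WT 5d. The median response of the histones was -0.58 in OE leaves and -1.22 in WT leaves. For all probe sets lowered on the WT replicate 1 arrays these medians were -0.64 and -1.40. Over the whole array 14.8% of probe sets fell in WT leaves and 6.53% in OE leaves, and 10947 of 22746 interactions were positive. Fewer falls in OE leaves were thus not particular to these classes. Of 12 tubulin and microtubule probe sets 10 were positive, the median was 0.37, and 5 fell in WT leaves against 2 in OE leaves. TUB7, a beta-tubulin gene, had 135 and 64.4 in OE 5d, 193 and 219 in OE 0d, 49.5 and 41.2 in WT 5d and 309 and 302 in WT 0d. Its interaction was 1.62 (SE 0.43, adjusted p = 0.196), the only one of this class past the study's threshold, although TUB1 had 1.66, and TUA1, an alpha-tubulin gene best known from pollen, had the opposite sign (-0.73). By OE 5d array the class medians were 2.29 and 1.16 for mitosis, 0.84 and 0.23 for histones and 0.71 and 0.10 for tubulins, with replicate 1 first.

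Among the wall families with a list, the medians lay between -0.064 for cellulose synthase-like proteins and 0.23 for glycosyl hydrolase family 9, and single members stood out from them. GH9B13, a gene of the glycosyl hydrolase family 9 that holds plant cellulases, had 36.8 and 39.0 in OE 5d, 21.7 and 33.7 in OE 0d, 9.15 and 8.49 in WT 5d and 96.1 and 53.3 in WT 0d. It fell in WT leaves by 3.02 (adjusted p = 0.000673), the OE response was 0.49 (adjusted p = 0.344), and the interaction was 3.51 (SE 0.42, adjusted p = 0.0779), almost the same with either OE 5d array (3.47 and 3.55). Of the 15 named members of this family 10 were positive, with a median of 0.23, and GH9B13 alone passed the study's threshold. ATLP-1, a thaumatin-like protein gene, is in none of these families. The study had picked it from these arrays for a check by qRT-PCR, so its value is no independent evidence. It had 264 and 78.6 in OE 5d, 197 and 241 in OE 0d, 35.2 and 18.9 in WT 5d and 473 and 343 in WT 0d. OE 5d was above WT 5d on both arrays and the interaction was 3.37 (SE 0.74, adjusted p = 0.162).

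STOMAGEN, named after its values were seen, which codes for a peptide that promotes the formation of stomata, had 295 and 93.8 in OE 5d, 349 and 303 in OE 0d, 52.4 and 58.7 in WT 5d and 382 and 338 in WT 0d. The genotypes were alike at 0 d and differed by 1.58 at 5 d, and the interaction of 1.73 (SE 0.62, adjusted p = 0.275) rested more on OE 5d replicate 1 (2.55) than on replicate 2 (0.90). The expansins, which loosen cell walls, had a median of 0.065 over 18 probe sets, with 3 past the study's threshold, EXPA15, EXPB3 and EXLA2, all positive. Of all probe sets 3.12% passed it in the positive direction. Of 9 genes for xyloglucan endotransglucosylases/hydrolases, which cut and rejoin wall polymers, XTH16 passed it, with 84.0 and 42.9 in OE 5d, 173 and 173 in OE 0d, 31.9 and 29.5 in WT 5d and 235 and 253 in WT 0d and an interaction of 1.46 (SE 0.39, adjusted p = 0.193). Further positive ones, named after their values were seen, were SBT1.3, a subtilisin-like protease gene (interaction 2.52), and BXL2, a beta-xylosidase gene (2.16). AT4G29030 (4.90), AT1G62500 (4.49), AT2G28790 (3.84), AT5G20740 (3.37), AT3G05600 (3.35) and ARPN, a plantacyanin gene (3.21), completed the 10 largest positive interactions among annotated transcripts without overlap between the array differences of the genotypes. Such absence of overlap was common, at 14.8% of all probe sets in the positive and 16.6% in the negative direction.

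Genes of the ER body, a compartment of Brassicaceae cells that stores beta-glucosidases for defence, had positive interactions through their falls in WT leaves. There 4 members fell, against 1 in OE leaves, where 14.8% and 6.53% of all probe sets did. The list was drawn up after PYK10 had been seen among the positive transcripts, so its counts are a description alone. Of 7 members with a probe set, 6 were positive. The study's threshold was passed by 4, all in the positive direction, where 3.12% of all probe sets passed. The median of the 7 was 1.64. The median was 2.30 with OE 5d replicate 1 alone and 0.914 with replicate 2 alone. It was 0.0997 without probe sets with a mean under 32 and 0.38 with values under 32 set to 32. PYK10, the main beta-glucosidase of the ER body, had 25.2 and 13.6 in OE 5d, 61.7 and 40.5 in OE 0d, 11.3 and 10.4 in WT 5d and 139 and 101 in WT 0d. It fell in OE leaves by 1.43 (adjusted p = 0.0239) and in WT leaves by 3.45 (adjusted p = 0.00065), with an interaction of 2.02 (SE 0.45, adjusted p = 0.164). NAI2, needed to form the compartment, had 22.9 and 11.0 in OE 5d, 26.2 and 18.6 in OE 0d, 7.09 and 6.94 in WT 5d and 57.8 and 42.1 in WT 0d and an interaction of 2.34 (SE 0.48, adjusted p = 0.157). For JAL33 and JAL22, jacalin-related lectin genes, the interactions were 1.93 and 1.64. NAI1, the transcription factor that controls PYK10, stayed between 9.15 and 14.8 on all arrays, and JAL23 had a negative value (-0.65, adjusted p = 0.834) with OE 5d arrays of 145 and 24.5. For the 4 members past the threshold OE minus WT lay between 0.66 and 1.17 at 5 d and between -1.27 and -0.88 at 0 d. All of their values at 5 d were under 32.

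A smaller set of transcripts rose in both genotypes and more so in OE leaves. Among the probe sets with a positive interaction past the study's threshold, 10 had risen more than 2-fold in WT leaves. STZ, a zinc finger repressor gene that is induced by drought, salt and cold, had 324 and 512 in OE 5d, 39.8 and 82.8 in OE 0d, 199.9 and 232 in WT 5d and 62.6 and 107 in WT 0d. It rose in OE leaves by 2.83 (adjusted p = 0.00526) and in WT leaves by 1.39 (adjusted p = 0.0281), with an interaction of 1.43 (SE 0.55, adjusted p = 0.288). SIS, a gene named for salt-induced serine-rich protein, had 576 and 966 in OE 5d, 67.9 and 80.6 in OE 0d, 437 and 383 in WT 5d and 108 and 91.5 in WT 0d, and OE 5d was higher than all other arrays with an interaction of 1.29 and an adjusted p of 0.196. HIS1-3, a linker histone gene known for its induction by drought and abscisic acid, had 131 and 223 in OE 5d, 17.5 and 22.3 in OE 0d, 58.1 and 36.2 in WT 5d and 11.5 and 11.2 in WT 0d. It rose by 3.11 in OE leaves and 2.01 in WT leaves, and its interaction was 1.103 (SE 0.42, adjusted p = 0.285). These 3 interactions were larger with OE 5d replicate 2 (1.76, 1.66 and 1.48) than with replicate 1 (1.104, 0.92 and 0.72).

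The dehydrin gene COR47, whose protein protects cells from water loss, had 788 and 952 in OE 5d, 322 and 370.1 in OE 0d, 520.4 and 395 in WT 5d and 334 and 388 in WT 0d. It rose in OE leaves by 1.33 (adjusted p = 0.00549), the WT response was 0.33 (adjusted p = 0.232), and the interaction was 0.99 (SE 0.26, adjusted p = 0.194). Of 5 named members of the cold-regulated list 4 rose in OE leaves and 2 in WT leaves, beside 7.06% and 15.7% of all probe sets. Of the 5, 4 were positive, and the median interaction was 0.56. By single OE 5d array the median was 0.86 with replicate 1 and 0.12 with replicate 2. Among transcripts without a symbol, AT3G15450 had 2968 and 3783 in OE 5d, 460.1 and 702 in OE 0d, 652 and 1437 in WT 5d and 1431 and 1005 in WT 0d, with OE 5d above all other arrays, and an interaction of 2.87 (SE 0.54, adjusted p = 0.141). AT3G15630 had 625 and 443 in OE 5d, 57.6 and 61.5 in OE 0d, 152 and 186 in WT 5d and 144 and 100.2 in WT 0d and an interaction of 2.66 (SE 0.33, adjusted p = 0.0819). They rose in OE leaves by 2.56 and 3.14, and the WT responses of -0.31 and 0.48 did not pass. Both, like SIS and HIS1-3, were named after their values were seen.

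Jasmonate signalling genes had the most negative median among the classes with 4 or more probe sets. Of 25 genes listed for jasmonate signalling and response, 7 had a named probe set. The median interaction was -1.88 and 5 were negative. The study's threshold was passed by 4, all in the negative direction, where 1.81% of all probe sets passed. The median was -2.30 with OE 5d replicate 1 alone, -1.37 with replicate 2 alone and -0.89 with values under 32 set to 32. At the median these genes were 0.16 higher in OE than in WT leaves at 5 d and 2.05 higher at 0 d, with a median response of -0.079 in OE leaves and 1.80 in WT leaves. In WT leaves 4 rose and in OE leaves none rose or fell at an adjusted p under 0.05. Of all probe sets 15.7% rose in WT leaves and 7.06% in OE leaves. The list holds genes that the study itself picked on these arrays, PDF1.2, PDF1.2b and THI2.1, so its direction is no independent evidence.

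PDF1.2, the plant defensin used as a marker of jasmonate and ethylene signalling, had 1347 and 289 in OE 5d, 999.8 and 904 in OE 0d, 466 and 556 in WT 5d and 83.1 and 27.4 in WT 0d. Only the WT 0d arrays were low. The WT response was 3.42 (adjusted p = 0.0077), the OE response was -0.61 (adjusted p = 0.659), and the interaction was -4.02 (SE 0.99, adjusted p = 0.174). PDF1.2b, whose probe set can also bind its near relatives, had 1440.0 and 482 in OE 5d, 1189 and 1051 in OE 0d, 699 and 1119 in WT 5d and 196 and 98.8 in WT 0d and an interaction of -3.09 (SE 0.73, adjusted p = 0.164). JRG21 and AT5G05600, both of which code for enzymes that inactivate jasmonic acid by hydroxylation, followed the same course. JRG21 had 50.1 and 146 in OE 5d, 55.6 and 102 in OE 0d, 80.9 and 55.9 in WT 5d and 17.3 and 10.4 in WT 0d, and its interaction was -2.14 (SE 0.73, adjusted p = 0.256). AT5G05600 had 144 and 259 in OE 5d, 203 and 205 in OE 0d, 172 and 173 in WT 5d and 50.3 and 48.6 in WT 0d, with WT 0d below all other groups, and its interaction was -1.88 (SE 0.34, adjusted p = 0.137).

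Of the jasmonate synthesis list 2 of 13 genes had a named probe set. Both were past the study's threshold in the negative direction, as were 1.81% of all probe sets. The study had picked JMT, and PRX52 given below, as higher in OE leaves at 0 d on these arrays. Their negative interactions are therefore no independent evidence. JMT, which makes the methyl ester of jasmonate, had 18.3 and 41.6 in OE 5d, 45.0 and 73.2 in OE 0d, 37.4 and 32.01 in WT 5d and 19.1 and 23.2 in WT 0d, an OE response of -1.06, a WT response of 0.72 and an interaction of -1.77 (SE 0.53, adjusted p = 0.222). OPCL1, which activates a jasmonate precursor for shortening in the peroxisome, had 132 and 298 in OE 5d, 183 and 227 in OE 0d, 297 and 303 in WT 5d and 103 and 141 in WT 0d and an interaction of -1.36 (SE 0.49, adjusted p = 0.276). PRX52, a class III peroxidase gene, had 17.8 and 18.1 in OE 5d, 18.5 and 28.7 in OE 0d, 16.6 and 23.62 in WT 5d and 7.74 and 8.07 in WT 0d, an interaction of -1.69 (SE 0.33, adjusted p = 0.147), and nearly the same value with either OE 5d array (-1.70 and -1.67), though all its intensities were under 32. THI2.1, the thionin marker of jasmonate response, went the other way, with an interaction of 2.35 and an adjusted p of 0.468, and had 312 and 56.8 in OE 5d, 43.5 and 159 in OE 0d, 9.54 and 9.84 in WT 5d and 70.6 and 13.4 in WT 0d and with wide pairs in all groups but WT 5d. TBL26, of the wall acetylation proteins, was high in OE 0d alone, with 65.8 and 43.8 in OE 5d, 248 and 377 in OE 0d, 54.5 and 40.3 in WT 5d and 68.4 and 89.9 in WT 0d. It fell in OE leaves by 2.51 (adjusted p = 0.00305), the WT response was -0.74, and the interaction was -1.77 (SE 0.40, adjusted p = 0.164).

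**Figure D3:**
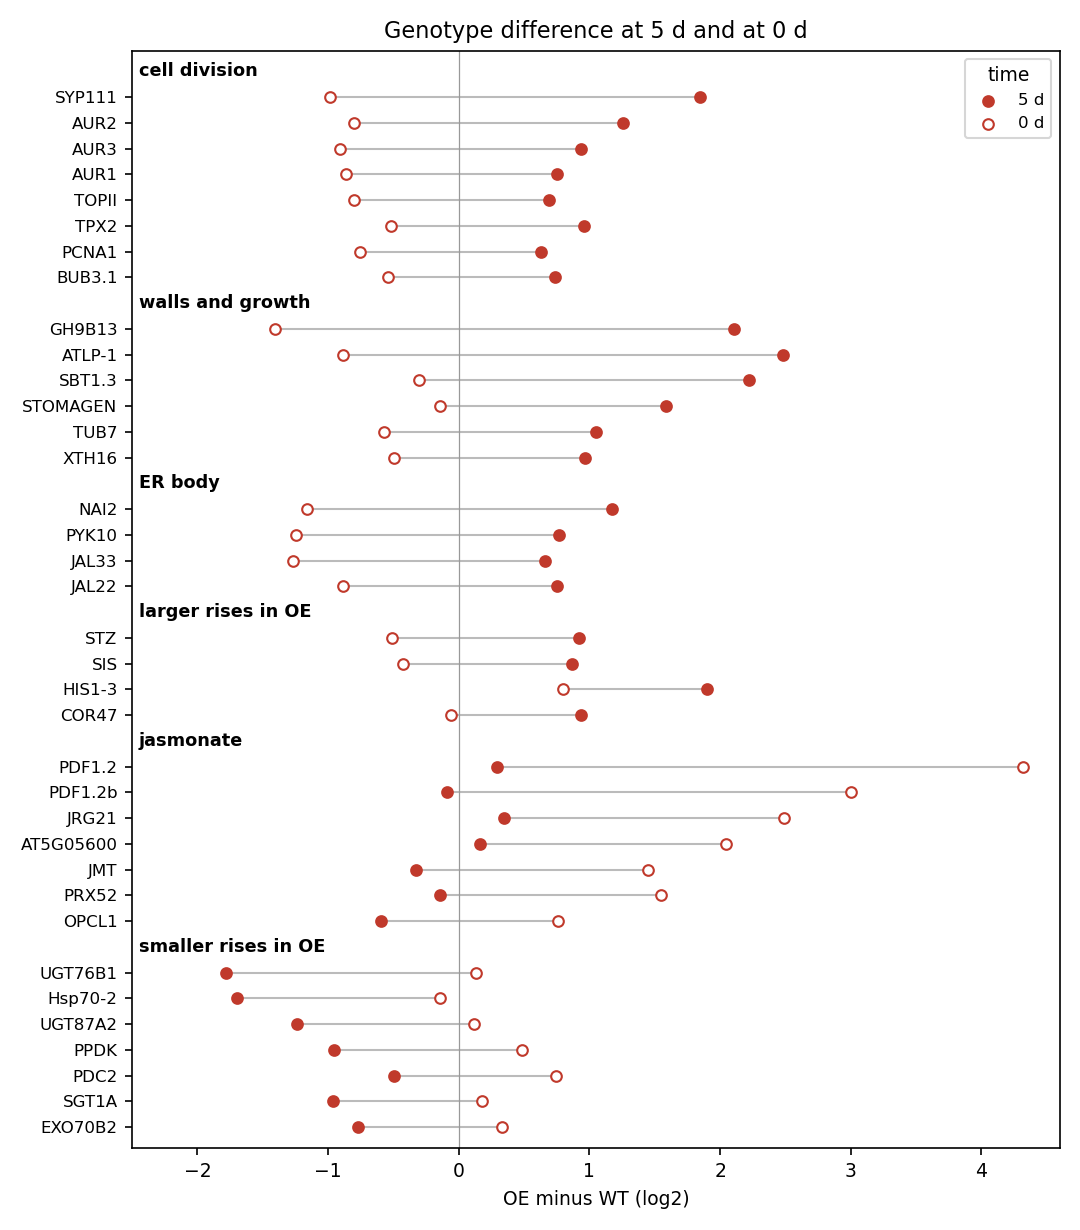
Difference of OE minus WT (log2, horizontal axis) at 5 d (filled points) and at 0 d (open points) for transcripts named in the text, the distance between the points being the interaction. The genes plotted under division, walls and growth, and ER body were higher in OE leaves at 5 d and lower at 0 d. Those plotted under jasmonate were closer to 0 at 5 d than at 0 d. They include PRX52, a peroxidase gene that is on neither jasmonate list. The plotted genes with smaller rises were lower in OE leaves at 5 d, UGT76B1 with -1.78. THI2.1, which went the other way, is not plotted.

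Several stress and defence transcripts had negative interactions while the genotypes differed little before drought, by -0.14 to 0.33 at 0 d for the transcripts given with their values in each array. UGT76B1, a glucosyltransferase that acts on isoleucic acid and salicylic acid, had 8.33 and 25.2 in OE 5d, 8.36 and 5.63 in OE 0d, 50.4 and 49.5 in WT 5d and 5.64 and 6.96 in WT 0d. It rose in WT leaves by 2.995 (adjusted p = 0.00218), the OE response was 1.08 (adjusted p = 0.162), and the interaction was -1.92 (SE 0.63, adjusted p = 0.25). UGT87A2, named after its values were seen, had 286 and 601 in OE 5d, 274 and 212 in OE 0d, 857 and 1113 in WT 5d and 243 and 204 in WT 0d and an interaction of -1.35 (SE 0.47, adjusted p = 0.263). Of 47 UDP-glycosyltransferases, which attach sugars to hormones and secondary products, 32 were negative with a median of -0.16, 6 passed the study's threshold in the negative and 1, UGT73B1, in the positive direction. Over the whole array 11799 of 22746 were negative, and 1.81% passed the study's threshold in the negative and 3.12% in the positive direction. In OE leaves 2 of the 47 rose and 4 fell, where 7.06% and 6.53% of all probe sets did, and in WT leaves 10 rose and 3 fell, beside 15.7% and 14.8%. The class median was 0 with values under 32 set to 32, and 27 of the 47 had a mean under 32.

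Hsp70-2, a cytosolic heat shock protein gene, had 76.5 and 218 in OE 5d, 68.7 and 68.3 in OE 0d, 365 and 482 in WT 5d and 69.4 and 82.2 in WT 0d. OE 5d replicate 1 lay among the arrays at 0 d and replicate 2 lay between these and WT 5d. The WT response was 2.47 (adjusted p = 0.00338), the OE response was 0.91 (adjusted p = 0.199), and the interaction was -1.56 (SE 0.59, adjusted p = 0.283). SGT1A, a cochaperone of immune receptors, had 219 and 367 in OE 5d, 184 and 198 in OE 0d, 468 and 653 in WT 5d and 182 and 156 in WT 0d, with an interaction of -1.14 (SE 0.37, adjusted p = 0.243). Over 9 probe sets for derlins, DnaJ and BiP chaperones of the endoplasmic reticulum the median was -0.23, 6 were negative and none passed the study's threshold. Over 7 probe sets for Hsp70 and its Hsp70-organizing and Fes1 cochaperones the median was -0.25, 3 were positive and 4 negative, and 1 passed. With OE 5d replicate 1 alone these medians were -0.119 and -0.561, and with replicate 2 alone 0.023 and 0.0635.

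Among defence regulators, EXO70B2, an exocyst subunit of immune secretion, had 136 and 287 in OE 5d, 68.6 and 63.6 in OE 0d, 284 and 401 in WT 5d and 57.1 and 48.5 in WT 0d. It rose in both genotypes, by 1.58 in OE leaves and 2.68 in WT leaves, and its interaction was -1.098 (SE 0.46, adjusted p = 0.324). PUB24, a ubiquitin ligase gene that dampens immune responses, rose by 1.46 in OE leaves and 2.57 in WT leaves (interaction -1.11, adjusted p = 0.329). AT3G13610, annotated as F6'H1 and known for the synthesis of scopoletin, had 33.6 and 115 in OE 5d, 8.01 and 8.39 in OE 0d, 216 and 286 in WT 5d and 6.04 and 12.9 in WT 0d, and it rose by 2.93 in OE leaves and 4.81 in WT leaves with an interaction of -1.89 and an adjusted p of 0.311. Of 19 exocyst and vesicle traffic genes 16 were negative (median -0.24, or -0.364 with OE 5d replicate 1 alone and -0.127 with replicate 2 alone), and of 14 glutathione S-transferases 12 were (median -0.32), but no glutathione S-transferase passed the study's threshold. In the exocyst and vesicle traffic class SEC1B passed it with -1.21 and VPS2.2 with 2.02. Of 8 glutamate receptor-like channels, a family with roles in wound signals, 7 were negative (median -0.74, or -1.14 with OE 5d replicate 1 alone and -0.447 with replicate 2 alone, and -0.16 with values under 32 set to 32) and none passed the study's threshold, led by GLR3.3 (-0.97), GLR2.7 (-0.99) and ATGLR1.2 (-0.96). In WT leaves 4 of the 8 rose and 1 fell, and in OE leaves none rose or fell at an adjusted p under 0.05. Of all probe sets 15.7% rose in WT leaves and 7.06% in OE leaves. The largest negative interactions among transcripts without a symbol were sought where the array differences did not overlap. They were those of AT1G10585 (-2.59), AT1G09500 (-2.32), AT5G59670 (-2.13), AT2G15020 (-1.997) and AT4G12490 (-1.89). The absence of overlap was a condition of this choice and was met at 16.6% of all probe sets in the negative direction. With values under 32 set to 32, AT1G10585 had -0.48 and AT1G09500 had -1.23, and the others kept their values.

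Further negative interactions are given as single genes. Except for LHCB4.3 they were named after their values were seen, as were SGT1A, EXO70B2 and PUB24. PDC2, a pyruvate decarboxylase of fermentation, had 237 and 303 in OE 5d, 95.3 and 81.8 in OE 0d, 377 and 379 in WT 5d and 55.5 and 50.2 in WT 0d. It rose in both genotypes, by 1.60 in OE leaves (adjusted p = 0.00236) and 2.84 in WT leaves (adjusted p = 0.000418), the interaction was -1.24 (SE 0.23, adjusted p = 0.141), and the OE 5d arrays lay close together. PPDK, pyruvate orthophosphate dikinase, had 370.1 and 699.5 in OE 5d, 432 and 417 in OE 0d, 919 and 1057 in WT 5d and 281 and 326 in WT 0d and an interaction of -1.44 (SE 0.38, adjusted p = 0.194). NDB2, an alternative NADH dehydrogenase of mitochondria, had an interaction of -1.09 (SE 0.29, adjusted p = 0.201). PDC2 and NDB2 were already higher in OE leaves at 0 d, by 0.74 and 0.61. CHX20, a cation exchanger of guard cells, had 91.8 and 105 in OE 5d, 122 and 94.1 in OE 0d, 189.8 and 170.4 in WT 5d and 64.5 and 88.1 in WT 0d. It rose in WT leaves by 1.25 (adjusted p = 0.00276) and had a response of -0.12 in OE leaves, with an interaction of -1.38 (SE 0.28, adjusted p = 0.16). NRT1.1, the nitrate transporter and sensor, fell in OE leaves by 1.23 (adjusted p = 0.00377) while the WT response was -0.17 (adjusted p = 0.487), with 234 and 282 in OE 5d, 598 and 612 in OE 0d, 367 and 429 in WT 5d and 463 and 429 in WT 0d and an interaction of -1.07 (SE 0.22, adjusted p = 0.155). LHCB4.3, a light-harvesting antenna gene, had 1280.0 and 1307 in OE 5d, 1459 and 1567 in OE 0d, 2137 and 1805 in WT 5d and 1076 and 1112 in WT 0d and an interaction of -1.07 (SE 0.20, adjusted p = 0.137), with the OE 5d arrays close together.

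Autophagy, plastid genome, bZIP and WRKY genes had medians near 0. All 8 autophagy genes, which code for the machinery that recycles cell contents, rose in WT leaves and 7 rose in OE leaves. Of all probe sets 15.7% rose in WT leaves and 7.06% in OE leaves. The autophagy genes had median responses of 0.92 in OE leaves and 0.89 in WT leaves. Their median interaction was -0.083, and none passed the study's threshold. Over 69 plastid genome genes the median was -0.12 with none past the study's threshold, and the medians of 14 bZIP and 6 WRKY transcription factors were 0.0043 and -0.080. Of the bZIP genes 2 and of the WRKY genes 1 passed it in the positive direction, beside 3.12% of all probe sets. By OE 5d array, replicate 1 first, the medians were 0.2 and -0.156 for bZIP and -0.312 and 0.183 for WRKY. The medians were -0.25 for 6 cytokinin and two-component response regulators, of which 5 were negative, and -0.24 for 7 calmodulin-like proteins, of which 6 were. They were 0.33 for 7 cold-regulated, dehydrin and LEA proteins and 0.225 for 10 RALF-like peptides. By OE 5d array, replicate 1 first, the medians were -0.186 and 0.0391 for calmodulin-like proteins and 0.269 and -0.0435 for RALF-like peptides. For the cold-regulated, dehydrin and LEA proteins they were 0.703 and 0.12, and for the response regulators -0.206 and -0.264. Smaller lists had -0.839 for salicylic acid (3 probe sets) and -1.31 for heat shock proteins (2 probe sets). Of the 10 Arabidopsis genes that the study names and that could be matched, 5 were positive and 5 negative. In the positive direction 1 passed its threshold and in the negative 4, beside 3.12% and 1.81% of all probe sets. None of the 10 passed an adjusted p of 0.05. The study picked several of them, with PDF1.2, PDF1.2b, JMT and PRX52, as higher in OE leaves at 0 d on these arrays. The interaction subtracts that difference, so their negative direction is no independent evidence.

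**Figure D4:**
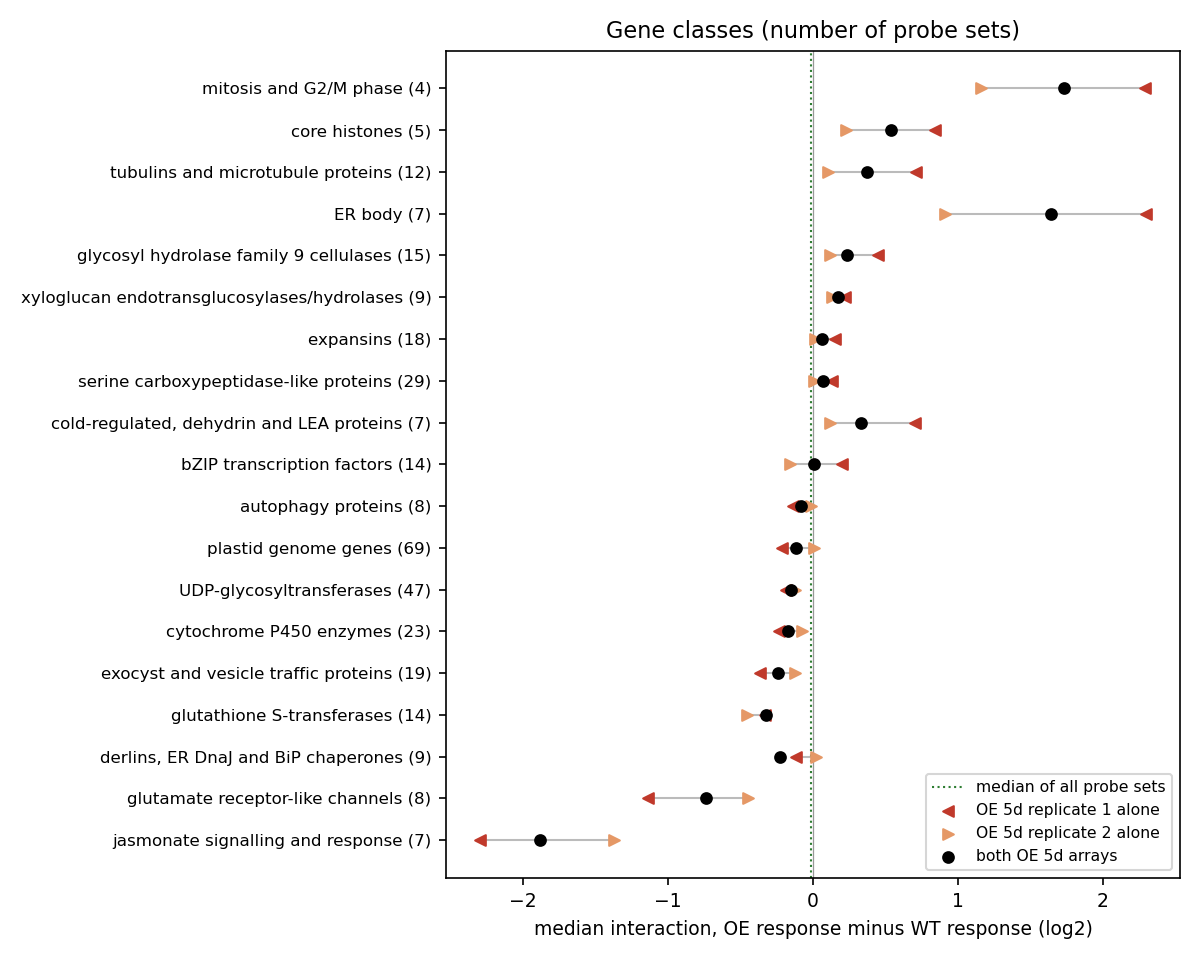
Median interaction (log2, OE response minus WT response) of gene classes with both OE 5d arrays (black) and with each alone (red, replicate 1, and orange, replicate 2), with the number of probe sets beside each name and the median of all probe sets as a dotted line. The medians range from -1.88 for jasmonate signalling to 1.73 for mitosis, and those of mitosis, ER body and jasmonate genes are farther from 0 with replicate 1.

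The OE 5d arrays were compared through the interaction computed with 1 of them at a time, against the same OE 0d and WT arrays. Of the 709 positive probe sets, 686 were past 2-fold with replicate 1, 350 with replicate 2 and 327 with both. Of the 412 negative ones the numbers were 397, 175 and 160. The median over the positive ones was 1.72 with replicate 1 and 0.99 with replicate 2, and over the negative ones -1.53 and -0.95. The interaction was farther from 0 with replicate 1 than with replicate 2 for 651 of the 709 and 359 of the 412. Named transcripts whose values were alike with both arrays included PRL, GH9B13, LHCB4.3, PRX52, AT2G15020 (-2.01 and -1.99) and ADT6, an arogenate dehydratase of phenylalanine synthesis that was named after its values were seen (-1.29 and -1.32). Whether the array, the pool or the state of the plants set the 2 arrays apart was not tested.

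**Figure D5:**
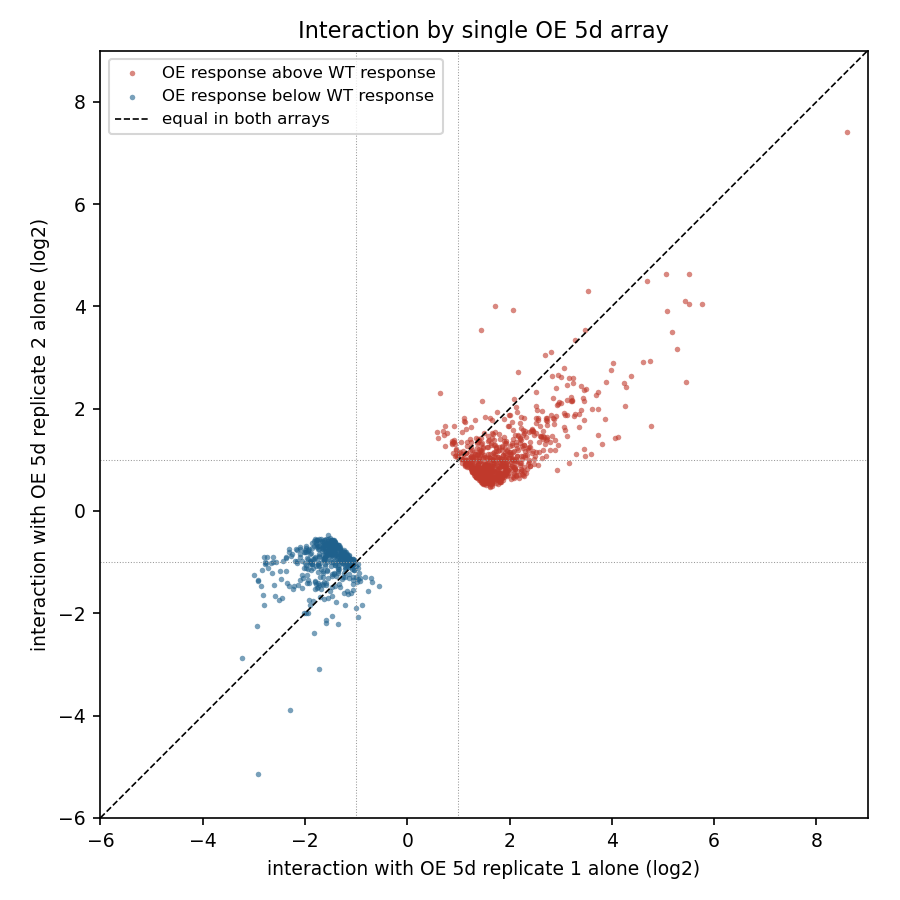
Interaction (log2) of the 1121 probe sets past the study's threshold, computed with OE 5d replicate 2 alone (vertical axis) and with replicate 1 alone (horizontal axis). The dotted lines mark 2-fold, and 651 of the 709 positive (red) and 359 of the 412 negative (blue) probe sets were farther from 0 with replicate 1.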

How the data were processed

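Leaf RNA of the 8 samples was amplified, labelled with biotin, hybridized to Affymetrix ATH1 arrays and scanned by a commercial service, per the labels and the methods of the study. The authors deposited 1 intensity per probe set and array on a linear scale. How the probe values were summarized and normalized, and with which software, is not given in the sources used here, so their effect on low values is unknown. Intensities were taken as log2 without further scaling. A linear model with a mean for each group was fitted to all 22746 probe sets with limma (version 3.58.1, R 4.3.3), and p-values of each contrast were adjusted over all probe sets by the Benjamini-Hochberg method. The script was tested on simulated data. The number of arrays, 2 a group, limits the precision.

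Gene names came from the platform annotation, which gave 13513 probe sets 1 symbol, 503 several and did not list 8730. A further 93 probe sets were named from a supplementary table of the study, for naming only, and class counts leave these out. The rule for named genes took all probe sets past the adjusted threshold, the 10 largest interactions in each direction among annotated probe sets past the study's threshold without overlap of the array differences and with a group mean of 32 or more, annotated opposite responses, up to 4 members per class by smallest p, and the genes the study names. The members and lists were chosen with earlier results of these data known, and the ER body list and genes named as such after their values were seen. Promoter motifs were planned and not analysed here. The replicate numbers were not taken to pair the arrays, because the correlations of same-numbered deviations ranged from 0.0136 to 0.223 and not all were above 0.1. Alternatives were replicate numbers as a block, other scalings, filters and floors for dim values, other variance settings, and leaving out each array.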

Additional observations from a re-analysis of the deposited data

Results flagged for a closer look

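The interaction itself is a test of a difference between the genotypes, and 7 probe sets passed it at an adjusted p under 0.05 by limma. Their values were 8.01 for AT4G22490, 4.85 for 247717_at, 4.59 for 253660_at, 3.31 for 249862_at, 2.81 for 257823_at, 2.42 for AT5G19120 and 2.29 for AT4G36180. Of the alternatives that gave each a value, 253660_at passed in 14 of 14, with interactions between 1.22 and 4.76. The probe sets 247717_at, 249862_at and 257823_at passed in 9 of 15 each, and AT4G22490, AT5G19120 and AT4G36180 in 8 of 15 each. These counts leave out limma without moderation of the spread, under which 0 probe sets passed. The interaction of 1.22 for 253660_at came with values under 32 set to 32. There all its groups but WT 0d became 32 and had no spread, so this pass says little. The filter that left out probe sets with a mean under 32 removed 253660_at and gave it no value.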

How the results depend on the processing

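Counts of calls depended most on the OE 5d arrays and on dim values. With each array left out in turn, 1 to 4159 probe sets passed the adjusted threshold, against 7 with all arrays, and 677 to 2886 passed the study's threshold, against 1121. Opposite responses numbered 7 to 55, against 10, and members of the listed classes past the study's threshold 35 to 98, against 52. The highest counts were those without OE 5d replicate 2, where replicate 1 was assumed to vary like the other groups (98 class members with OE 5d replicate 1 alone). Without OE 5d replicate 1, 175 passed the adjusted threshold and 677 the study's, and without any one of the other 6 arrays 1 to 3 passed the adjusted threshold. The slope of the OE response on the WT response stayed between 0.311 and 0.696.

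Without probe sets with a mean under 32, 4 passed the adjusted threshold and 6 had opposite responses. With values under 32 set to 32 these numbers were 55 and 4, 399 passed the study's threshold and 21 class members did. Only 3 of the 7 probe sets that passed with the values as deposited were among the 55. This floor leaves no spread in groups with all values under 32, so the 55 are not a firmer set. The adjusted threshold was passed by 11 with array weights, by 3 with 1 probe set per annotated gene, and by 0 in limma without moderation, where 2419 had an unadjusted p under 0.05. With the replicate number as a block 10 passed the adjusted threshold, 1232 the study's, and 56 class members did, all within 1.5 times the counts without the block. Of the class medians followed, 6 values moved by more than the SD between the medians with 1 OE 5d array each. With values under 32 set to 32 the medians were -0.89 for jasmonate signalling, 0.38 for the ER body, 0.80 for mitosis, 0 for UDP-glycosyltransferases and -0.16 for glutamate receptor-like channels, and without probe sets with a mean under 32 that of the ER body was 0.0997. The cause of these differences was not tested. Quantile normalization and median centring left the number past the adjusted threshold at 7. None of the 159 named probe sets past the study's threshold changed the sign of its interaction under the alternatives refitted across all probe sets. They were chosen for a large interaction on the same arrays, so a stable sign was likely beforehand. Of all 278 named probe sets, up to 8 changed sign in an alternative, the most without OE 5d replicate 1. Intensities under 32 limit the sizes of changes in dim transcripts.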
